A study of Mus musculus with 3 samples.

Results

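Translation initiation and elongation factors are the proteins that place the ribosome on an mRNA, find the start codon and drive the growth of the peptide chain. In the initiation phase, eIF2 brings the initiator tRNA to the small ribosomal subunit, eIF3 holds the initiation complex together, and the eIF4 group binds the mRNA cap and unwinds the leader. In elongation, eEF1 delivers aminoacyl-tRNAs and eEF2 moves the ribosome along the message. Quiescent naive T cells are known to translate little and to raise protein synthesis when activated.

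The genes were those whose symbol begins with Eif or Eef and a digit, taken from probe sets that the platform annotation pairs with 1 symbol. They came to 47 of the 10191 genes measured, on 50 probe sets. Of these, 41 encode factors or proteins named with them, and 6 encode regulators, namely kinases of eIF2, binding or transport proteins of eIF4E and a methyltransferase of eEF2. RefSeq lists 71 protein-coding genes with such symbols. The other 24, among them Eif1, Eif2s1, Eif2s2, Eif4g1, Eif5b and Eef2k, were not analysed here. The table holds only probe sets with a value of at least 7 on some array, and 45 of the 47 genes were at 7 or more on all 3 arrays. The exceptions, Eif1ax and Eef2kmt, entered through the arrays on which they were higher.

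The 3 CD8+ T cell populations, CXCR3+ innate, CXCR3- innate and naive, were measured on 1 Affymetrix array each. All came from spleen and lymph nodes of unmanipulated C57BL/6 mice in which GFP, a fluorescent protein, reports expression of the chemokine receptor gene Cxcr3, and were sorted after staining for CD44, CD62L and CD8. Innate is the submitters' word for the cells set apart from naive ones. The gates, and the age and sex of the mice, are not given in the sources used here. RNA came from about 3 to 5 mice, and whether their cells were pooled is not stated either; the extraction text of the labels calls the mice CIBER mice, a name that appears nowhere else. With 1 array a group, no test, standard error or p-value could be given, so higher and lower describe these 3 arrays, and no difference was set against a spread between replicates. In sorted bulk samples, fewer cells of a type and less RNA per cell cannot be told apart.

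Facts of the whole table bear on every value below. The measured T cell genes Cd8a, Cd8b1, Cd3d, Cd3e, Cd3g and Cd2 lay between 8.31 and 11.81 log2 units on the arrays. Of the genes used in the sort or the reporter, Cxcr3 itself read 7.97 in CXCR3+ and 7.82 in CXCR3- innate cells, against 7.57 in naive cells, so the innate arrays lay close together for the gene that separates them. Cd44, a marker of antigen-experienced and innate-like T cells, read 8.30 in CXCR3+ and 7.88 in CXCR3- innate cells, against 7.24 in naive cells. The summed level of the T cell genes on the log2 scale was 13.14 in CXCR3+ and 12.99 in CXCR3- innate cells, against 13.43 in naive cells. None of 7 B cell and 5 erythroid markers was measured, while 1 of 3 NK cell markers and 3 of 7 myeloid markers were. The NK cell marker, Ncr1, read 7.19 in CXCR3+ and 7.43 in CXCR3- innate cells, against 7.19 in naive cells. The summed myeloid level, over Itgam, Adgre1 and Cd68, was 9.04, 9.10 and 9.07 in the same order, and its part in the results was not tested. Exactly equal values were frequent: 34.2% of 12417 probe sets read the same on all 3 arrays, so an equal value does not show equal expression. The spread of values was narrowest on the CXCR3- innate array, with an SD over probe sets of 0.928 in CXCR3+ and 0.900 in CXCR3- innate cells, against 0.953 in naive cells.

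Translation factor genes had their lowest values in CXCR3- innate cells, and CXCR3+ innate cells lay close to naive cells. In CXCR3- innate cells 36 of the 47 genes read lower than in naive cells, 3 read higher and 8 were equal, with a median difference of -0.22 log2 units. Over all genes 36.3% read lower and 21.6% higher in that comparison, and the median was 0.00. In CXCR3+ innate cells 33 genes read lower than in naive cells, 5 higher and 9 equal, but the median was only -0.05; over all genes 34.2% read lower and 20.7% higher. Between the innate populations, 34 genes read higher in CXCR3+ innate cells, 3 lower and 10 equal, with a median of 0.17, against 28.7% higher, 22.3% lower and a median of 0.00 over all genes. The comparisons share arrays, the naive array in the first pair and the CXCR3- innate array in the second, so they are not separate evidence.

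**Figure D1:**
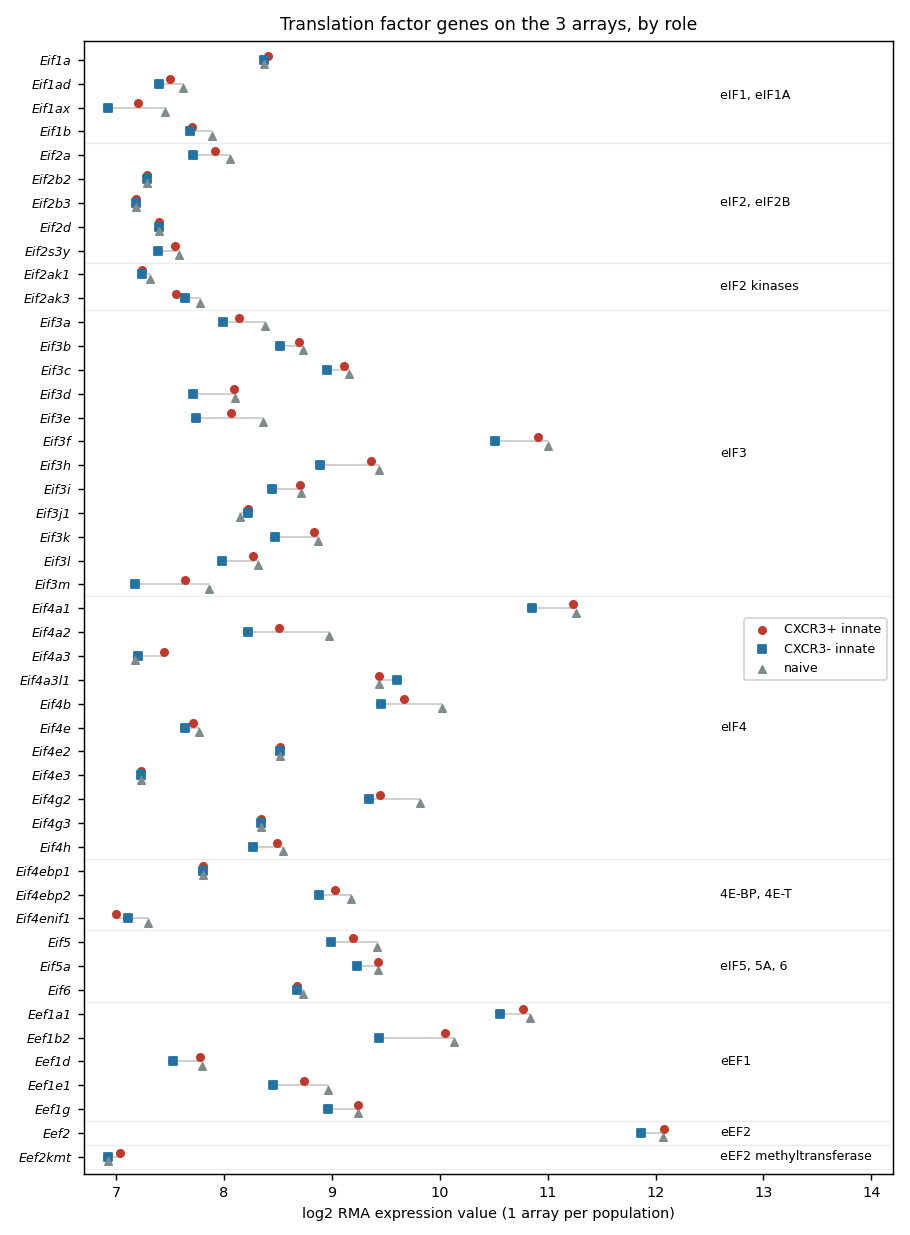
Log2 RMA expression value (horizontal axis) of each of the 47 translation factor genes (rows, grouped by role) in CXCR3+ innate (circles), CXCR3- innate (squares) and naive cells (triangles), with 1 array per population and a grey line over the range. In 31 genes the CXCR3- innate square is the lowest of the 3 points.

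The plot of values by array shows the order gene by gene. The CXCR3- innate value was the lowest of the 3 in 31 genes, which is 66%, against 20.7% of all genes. The full order naive, CXCR3+ innate, CXCR3- innate from high to low was found in 28 genes, or 59.6%, against 12.5% of all genes. Ties between arrays were found in 66.9% of all genes and 31.9% of the translation factor genes, and the shares among genes of like brightness are nearer to each other, as given below. Only Eif4a3, Eef2, Eif1a and Eef2kmt had their highest value in CXCR3+ innate cells. There were 6 genes, Eif2b2, Eif2b3, Eif2d, Eif4e2, Eif4ebp1 and Eif4g3, that read exactly the same on all arrays.

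A gene was counted as past 1.5-fold when its values differed by at least that much and the higher was at or above the median of its array over all genes; 36 of the 47 genes were bright enough to be counted. By this rule 4 genes were lower in CXCR3- innate than in naive cells (Eif4a2, Eef1b2, Eif3m and Eif3e) and none was higher, where 1.60% of all genes were lower and 0.0981% higher. None was past 1.5-fold in either direction in CXCR3+ innate against naive cells, where 0.697% of all genes were lower and 0.5% higher. Eef1b2 alone was higher in CXCR3+ than in CXCR3- innate cells and none was lower, against 1% and 0.0785% of all genes. Among genes at or above the 75th percentile of mean value over all genes, 2 of 26 translation factor genes were lower in CXCR3- innate than in naive cells, against 5.26% of all genes in that range, and 1 of 26 was higher in CXCR3+ than in CXCR3- innate cells, against 2.86%. Counts this small are near those shares, so the number past 1.5-fold does not set the translation factor genes apart from other bright genes. At 2-fold no translation factor gene passed in any comparison. Over all genes, 0.137% were that much higher and 0.0981% lower in CXCR3+ innate than in naive cells, 0.0196% higher and 0.226% lower in CXCR3- innate than in naive cells, and 0.147% higher and 0.00981% lower in CXCR3+ than in CXCR3- innate cells. At a smaller size of 0.32 log2 units, 16 genes were lower in CXCR3- innate than in naive cells, against 7.56% of all genes. At that size 3 were lower in CXCR3+ innate than in naive cells, against 4.26% of all genes, and 8 were higher in CXCR3+ than in CXCR3- innate cells, against 3.72%. Shares among bright genes alone were not taken at that size, so these counts are not matched for brightness.

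**Figure D2:**
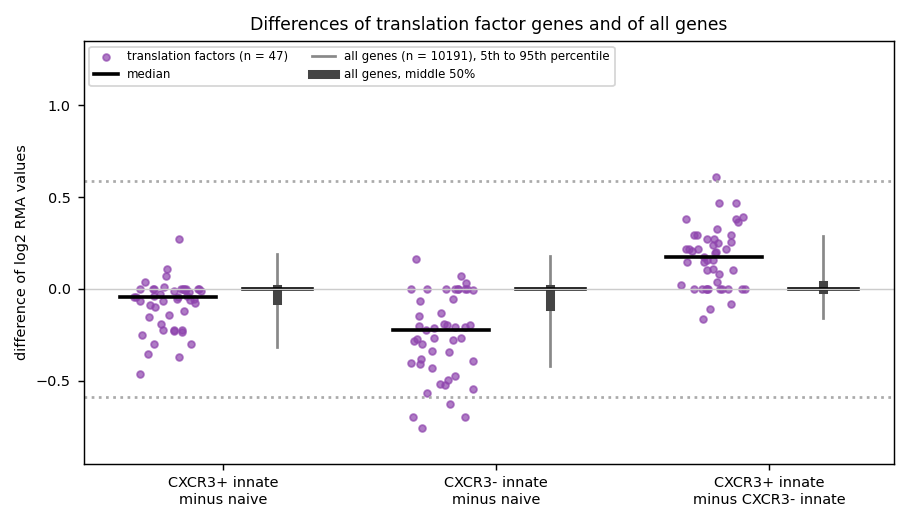
Difference of log2 RMA values (vertical axis) in the 3 comparisons, with a point for each of the 47 translation factor genes and their median as a bar, beside the median, the middle 50% and the 5th to 95th percentile of all 10191 genes. Dotted lines mark 1.5-fold, and the gene median is -0.05 for CXCR3+ innate relative to naive cells, -0.22 for CXCR3- innate relative to naive cells and 0.17 for CXCR3+ relative to CXCR3- innate cells.

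Bright genes as a whole were lower on the CXCR3- innate array, and 26 of the translation factor genes lay at or above the 75th percentile of mean value. Over all 2548 genes in that range the median for CXCR3- innate relative to naive cells was -0.11 and 66% of genes were below 0. The 26 translation factor genes there had a median of -0.28, with 21 below 0. In that range the CXCR3- innate value was the lowest of the 3 in 76.9% of translation factor genes and 41.9% of all genes, and the full order naive, CXCR3+ innate, CXCR3- innate was found in 65.4% and 29% of them. For CXCR3+ relative to CXCR3- innate cells the medians in that range were 0.22 for the translation factor genes, with 21 above 0, and 0.00 for all genes, with 47.7% above 0. For CXCR3+ innate relative to naive cells they were -0.04 and -0.04, with 18 translation factor genes and 59% of all genes below 0. Among the brightest 10% of all genes the median for CXCR3- innate relative to naive cells was -0.20, and the 14 translation factor genes among them had a median of -0.35. How far the trend with brightness enters the values of single genes was not tested.

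**Figure D3:**
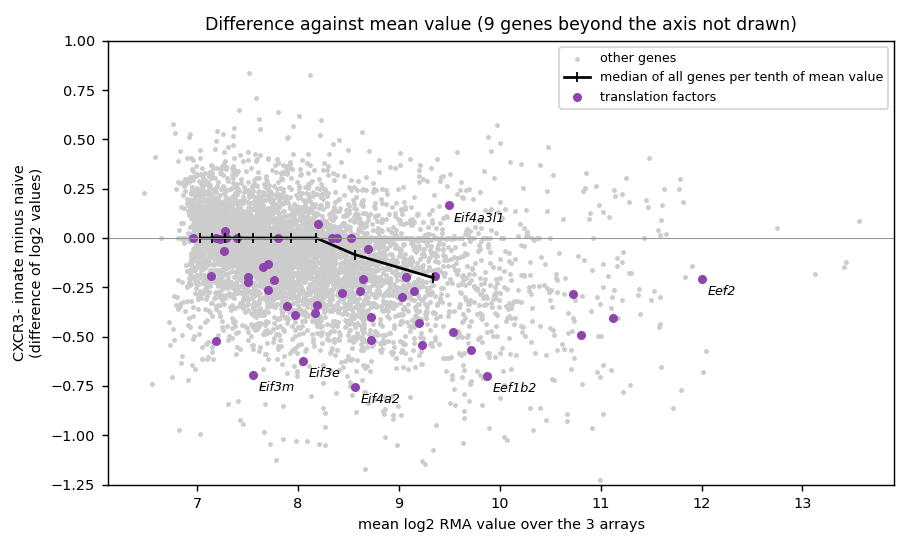
Difference of log2 values for CXCR3- innate relative to naive cells (vertical axis) against the mean log2 value over the 3 arrays (horizontal axis) for other genes (grey) and the 47 translation factor genes (purple), with the median of all genes in bins of 10% of genes (black line). The black line goes down to -0.20 at the bright end, where 14 translation factor genes have a median of -0.35; 9 genes lie beyond the vertical axis.

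eIF3 was the group with the most genes to compare. It is the largest initiation factor, a scaffold of many subunits on the small ribosomal subunit, and 12 of its genes were measured. All but Eif3j1 read lower in CXCR3- innate than in naive cells, with a median of -0.39, and the same 11 had their lowest value on the CXCR3- innate array. Against this, the eIF3 median for CXCR3+ innate relative to naive cells was -0.04, and for CXCR3+ relative to CXCR3- innate cells it was 0.31. Eif3m, a structural subunit, read 7.64 in CXCR3+ and 7.17 in CXCR3- innate cells, against 7.86 in naive cells, so CXCR3- innate cells were 1.62-fold lower than naive cells. It passed the filter on dim genes through its naive value, and its CXCR3- innate value lay below the 7.63 that was the median gene there and close to 7, so the size of its difference is uncertain. Eif3e, also known as Int6, read 8.06 in CXCR3+ and 7.74 in CXCR3- innate cells, against 8.36 in naive cells, and was 1.54-fold lower in CXCR3- innate than in naive cells. CXCR3+ innate cells lay between the other arrays in both genes, 0.22 below naive cells for Eif3m and 0.30 below for Eif3e.

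Eif3h and Eif3f encode the subunits with an MPN fold, a domain shared with proteasome lid and signalosome proteins. Eif3h read 9.36 in CXCR3+ and 8.89 in CXCR3- innate cells, against 9.44 in naive cells, and Eif3f 10.91, 10.51 and 11.01. In each of them the CXCR3+ innate and naive values were at most 0.10 apart while the CXCR3- innate value was at least 0.39 below both. Eif3k and Eif3l, small accessory subunits, differed by -0.40 and -0.34 for CXCR3- innate relative to naive cells and by -0.04 and -0.05 for CXCR3+ innate relative to naive cells. Eif3d, which can itself bind an mRNA cap, read 8.10 in CXCR3+ and 7.72 in CXCR3- innate cells, against 8.10 in naive cells. It was the subunit with the nearest values in CXCR3+ innate and naive cells, at -0.01.

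The large subunit Eif3a read 8.14 in CXCR3+ and 7.99 in CXCR3- innate cells, against 8.38 in naive cells. The smallest differences from naive cells among the 11 lower subunits were those of the scaffold genes Eif3b, at -0.21, and Eif3c, at -0.20, and of Eif3i, at -0.27, in CXCR3- innate cells. Eif3j1, which encodes the loosely bound eIF3j, stood apart, at 8.22 on both innate arrays and 8.15 in naive cells. A probe set that it shares with Eif3j2, kept out of its value, had the opposite sign. It gave -0.08 for CXCR3+ innate and -0.07 for CXCR3- innate relative to naive cells, so the direction for Eif3j1 is uncertain. Taken by structure, a split made after the values were seen, the 8 subunits of the octamer of PCI and MPN proteins (a, c, e, f, h, k, l and m) had a median of -0.45 for CXCR3- innate relative to naive cells. The other 4 had one of -0.24, with ranges from -0.69 to -0.20 and from -0.39 to 0.07 that overlapped.

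**Figure D4:**
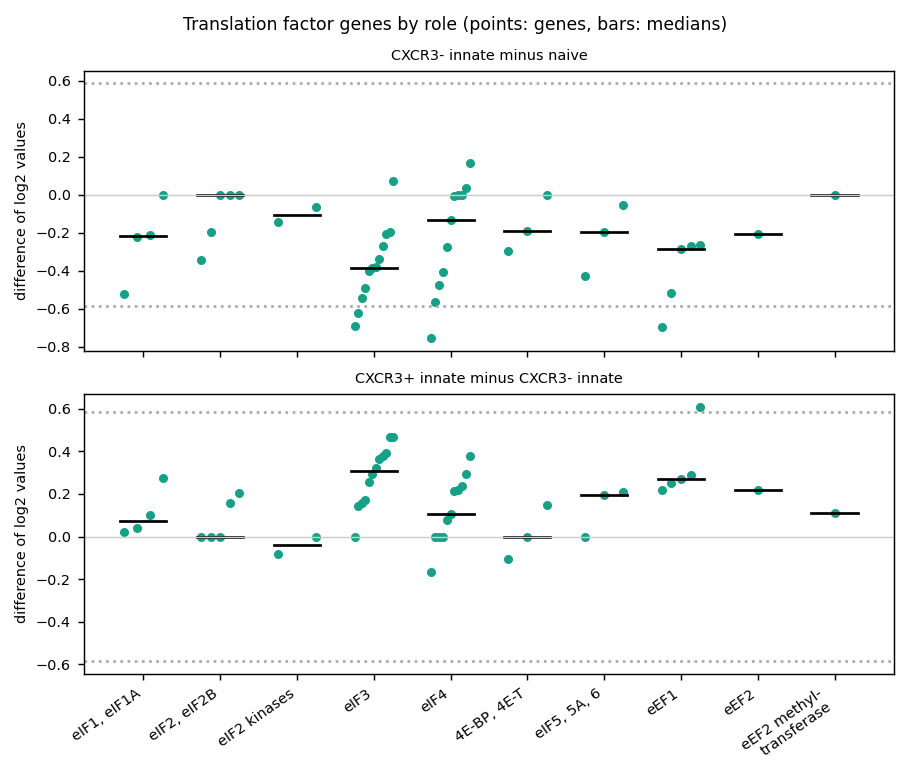
Difference of log2 values (vertical axis) for each translation factor gene (points) by role, with the median of each role as a bar, for CXCR3- innate relative to naive cells (upper panel) and CXCR3+ relative to CXCR3- innate cells (lower panel); dotted lines mark 1.5-fold. The eIF3 median is -0.39 in the upper and 0.31 in the lower panel, and that of eIF2 and eIF2B is 0.00 in both. Of the 5 genes of eIF2 and eIF2B, only Eif2a passes the filter on dim genes.

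The helicase genes of the eIF4 group gave differing values. eIF4A unwinds mRNA leaders, and the annotation holds 4 genes of that name, of which Eif4a1 and Eif4a2 encode closely related proteins. Eif4a2 had the lowest difference for CXCR3- innate relative to naive cells among all 47 genes. It read 8.51 in CXCR3+ and 8.22 in CXCR3- innate cells, against 8.97 in naive cells, which is 1.69-fold lower in CXCR3- innate than in naive cells. It was also the gene farthest below naive in CXCR3+ innate cells, at -0.46. Its 2 probe sets gave -0.74 and -0.77 for CXCR3- innate relative to naive cells and -0.54 and -0.39 for CXCR3+ innate relative to naive cells. Eif4a1, by contrast, read 11.23 in CXCR3+ and 10.86 in CXCR3- innate cells, against 11.26 in naive cells. CXCR3+ innate cells were thus 0.03 below naive cells for Eif4a1. Its probe sets lay far apart in level, at 13.58 and 8.89 in CXCR3+ innate cells, so the gene values are means near neither of them. They differed in size between the innate arrays, at 0.53 and 0.22. For CXCR3+ innate relative to naive cells they had opposite signs, at 0.06 and -0.12.

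Eif4a3 encodes the helicase of the exon junction complex, which marks spliced mRNA. It read 7.44 in CXCR3+ and 7.204 in CXCR3- innate cells, against 7.17 in naive cells, and its 0.27 for CXCR3+ innate relative to naive cells was the highest of the 47 genes in that comparison, below the filter on dim genes. Eif4a3l1, a near copy of that gene whose probes may share its transcripts, read 9.44 in CXCR3+ and 9.60 in CXCR3- innate cells, against 9.44 in naive cells. Eif4a3l1 therefore had the opposite order of the innate arrays, and its values are uncertain for that reason.

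Among the partners of the eIF4A helicase, Eif4b, Eif4h and Eif4g2 had their highest values in naive cells, and Eif4g3 was equal on the arrays. Eif4b, a cofactor that stimulates the helicase, read 9.67 in CXCR3+ and 9.45 in CXCR3- innate cells, against 10.02 in naive cells. Eif4h, a related cofactor, read 8.49, 8.27 and 8.54 in the same order, so that its CXCR3+ innate value lay near the naive one. Both innate arrays were below naive for Eif4b, at -0.35 in CXCR3+ innate and -0.57 in CXCR3- innate cells. Eif4g2, which encodes the eIF4G-like protein DAP5, likewise read 9.45 in CXCR3+ and 9.34 in CXCR3- innate cells, against 9.82 in naive cells. Its relative Eif4g3, a scaffold that joins the cap-binding protein to eIF3, read 8.34 on all 3 arrays.

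Genes of cap binding showed small differences. The cap-binding protein gene Eif4e read 7.71 in CXCR3+ and 7.63 in CXCR3- innate cells, against 7.77 in naive cells. Its relatives were flat, with Eif4e2 at 8.52 on every array and Eif4e3 at 7.23 on every array to within 0.01. The 4E-binding proteins hold eIF4E back until mTOR phosphorylates them. Eif4ebp1 read 7.81 on all 3 arrays, and Eif4ebp2 read 9.03 in CXCR3+ and 8.88 in CXCR3- innate cells, against 9.18 in naive cells. Eif4enif1, which encodes a protein that carries eIF4E into the nucleus, was dim, at 7.001 in CXCR3+ and 7.11 in CXCR3- innate cells, against 7.30 in naive cells. It and Eif2ak3 were the 2 genes with the order naive, CXCR3- innate, CXCR3+ innate from high to low.

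The measured genes of factors that carry the initiator tRNA and recycle GDP had small differences, and of the eIF2 subunit genes only Eif2s3y was analysed. The role group of eIF2 and eIF2B had 5 measured genes, of which Eif2b2 and Eif2b3, subunits of the exchange factor eIF2B, and Eif2d, which encodes a separate tRNA-binding factor, read the same on every array. Eif2a, which despite its name is no subunit of eIF2, read 7.92 in CXCR3+ and 7.71 in CXCR3- innate cells, against 8.06 in naive cells. Eif2s3y, the Y-linked gene of the gamma subunit of eIF2, read 7.54 in CXCR3+ and 7.39 in CXCR3- innate cells, against 7.59 in naive cells. Neither reached 1.5-fold in any comparison. Of the 5 genes only Eif2a passed the filter on dim genes, so equal or near values of the others do not show equal expression. The eIF2 kinases slow initiation under stress. Eif2ak3, which encodes the endoplasmic reticulum stress kinase PERK, read 7.55 in CXCR3+ and 7.64 in CXCR3- innate cells, against 7.78 in naive cells, and Eif2ak1, for the haem-regulated kinase, 7.24 on both innate arrays and 7.31 in naive cells.

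Scanning factors help the small subunit to find the start codon. Eif1ax, an X-linked gene of eIF1A, read 7.198 in CXCR3+ and 6.92 in CXCR3- innate cells, against 7.45 in naive cells, a difference of -0.52 for CXCR3- innate relative to naive cells that lay below the filter on dim genes. Its autosomal copy Eif1a read 8.41 in CXCR3+ innate and 8.37 on both other arrays. The paralogues thus differed in their differences, and with 1 array each no test of that could be made. Eif1b, a copy of the eIF1 gene, read 7.70 in CXCR3+ and 7.68 in CXCR3- innate cells, against 7.89 in naive cells. Eif1ad, which encodes a protein with an eIF1A-like domain, was 0.22 lower in CXCR3- innate and 0.12 lower in CXCR3+ innate than in naive cells.

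Of the 3 remaining initiation factor genes, Eif5 alone had the full order naive, CXCR3+ innate, CXCR3- innate from high to low. Eif5, the activator of GTP hydrolysis by eIF2, read 9.20 in CXCR3+ and 8.99 in CXCR3- innate cells, against 9.42 in naive cells. Eif5a, the factor that carries the modified amino acid hypusine and eases difficult peptide bonds, read 9.43 in CXCR3+ and 9.23 in CXCR3- innate cells, against 9.43 in naive cells. Eif6, which keeps the ribosomal subunits apart, read 8.68 on both innate arrays and 8.73 in naive cells.

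Elongation factor genes had their lowest value in CXCR3- innate cells in all 6 cases measured, the 5 of the eEF1 group and Eef2. The eEF1 median was -0.28 for CXCR3- innate relative to naive cells, 0.27 for CXCR3+ relative to CXCR3- innate cells and -0.07 for CXCR3+ innate relative to naive cells. Eef1b2, a subunit of the complex that reloads eEF1A with GTP, read 10.05 in CXCR3+ and 9.44 in CXCR3- innate cells, against 10.14 in naive cells. That made CXCR3- innate cells 1.62-fold lower than naive cells and CXCR3+ innate cells 1.53-fold higher than CXCR3- innate cells, which was just past the threshold. Its partners in that complex, Eef1d and Eef1g, differed by -0.27 each for CXCR3- innate relative to naive cells, and by -0.02 and 0.00 for CXCR3+ innate relative to naive cells.

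Eef1a1, the carrier of aminoacyl-tRNA, read 10.77 in CXCR3+ and 10.55 in CXCR3- innate cells, against 10.84 in naive cells. The gene has many processed copies in the genome, so that its values are uncertain. Its 2 probe sets lay far apart in level, at 8.78 and 12.76 in CXCR3+ innate cells. They gave -0.38 and -0.19 for CXCR3- innate relative to naive cells. Eef1e1, whose product belongs to the multi-synthetase complex, read 8.74 in CXCR3+ and 8.45 in CXCR3- innate cells, against 8.97 in naive cells. Eef2, the translocase, read 12.08 in CXCR3+ and 11.86 in CXCR3- innate cells, against 12.07 in naive cells, with the innate arrays on either side of a naive value that the CXCR3+ innate array matched to 0.01. Eef2kmt, which encodes a methyltransferase of eEF2, read 7.03 in CXCR3+ innate and 6.92 on both other arrays, below the filter on dim genes.

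The 4 genes past 1.5-fold were looked at for shared promoter sequence, from RefSeq windows of mouse build GRCm38.p6 that reach from 250 bases before to 50 after the annotated start. Such windows were matched by symbol for 36 of the 47 genes and for 3 of the 4. In all, 7 short motifs were searched on both strands. CCGGAA, the core that ETS factors are known to bind, was in the windows of 20 of the 36 genes, or 55.6%, against 26.2% of the 7958 measured genes with a window and 16.7% of 27025 genes in the RefSeq table. CACGTG, the E-box known to be bound by MYC, was in 25% of the 36, against 10.8% of measured genes and 8.09% of all. For GGGCGG, the GC box, the shares were 77.8%, 58.9% and 38.2% in the same order. AAGATGGC was in 13.9%, 4.70% and 3.19%, TCGCGA in 11.1%, 4.55% and 2.86%, TATAAA in 11.1%, 11.8% and 15.7%, and ATTGG in 36.1%, 40.8% and 41.1%. A gene with several windows counted when any held the motif, and a match is only a run of letters. Shares among genes of like brightness were not taken, so the motif shares are not matched for brightness.

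The windows of the 3 genes are shown because these genes had the largest differences, from 220 bases before to 30 after the start, 5′ to 3′ on the strand of the gene. Capitals mark CCGGAA or its reverse complement TTCCGG, a motif chosen after the shares were seen. Eif4a2 lies on the plus strand at chr16:23107248-23107497, Eef1b2 on the plus strand at chr1:63176611-63176860, and Eif3m on the minus strand at chr2:105016998-105017247.
Eif4a2: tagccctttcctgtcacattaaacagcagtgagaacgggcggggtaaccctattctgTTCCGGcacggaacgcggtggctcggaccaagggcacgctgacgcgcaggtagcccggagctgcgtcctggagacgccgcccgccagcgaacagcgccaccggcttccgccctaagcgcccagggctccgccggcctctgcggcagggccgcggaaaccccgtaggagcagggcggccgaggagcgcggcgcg
Eef1b2: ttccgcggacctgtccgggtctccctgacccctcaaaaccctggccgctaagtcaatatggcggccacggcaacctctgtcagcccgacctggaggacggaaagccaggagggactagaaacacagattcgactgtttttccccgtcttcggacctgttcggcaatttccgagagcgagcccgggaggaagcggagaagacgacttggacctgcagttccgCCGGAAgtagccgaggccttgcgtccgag
Eif3m: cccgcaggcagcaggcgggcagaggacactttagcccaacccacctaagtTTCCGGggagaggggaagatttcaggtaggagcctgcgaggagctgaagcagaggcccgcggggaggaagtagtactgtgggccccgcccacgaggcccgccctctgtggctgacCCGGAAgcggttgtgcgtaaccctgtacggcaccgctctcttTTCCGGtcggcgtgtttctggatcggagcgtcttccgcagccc

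All 3 windows hold the motif, as did the windows of 20 of the 36 genes, or 55.6%, so 3 windows do not set these genes apart. It occurs 1 time in the windows of Eif4a2 and Eef1b2 and 3 times in that of Eif3m. In Eef1b2 it lies next to the annotated start, and in Eif4a2 far upstream of it, so its place in the window differed among these genes.

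Genes of neighbouring steps of translation, listed with earlier results of these data known, were compared by their counts. Of the 4 measured poly(A)-binding proteins and partners, 1 passed 1.5-fold and was lower in CXCR3- innate than in naive cells, against 1.60% of all genes. It was Paip2, which encodes a protein that holds back the poly(A)-binding protein, at 8.48 in CXCR3+ and 8.13 in CXCR3- innate cells, against 8.83 in naive cells. Pabpc1, the main poly(A)-binding protein, read 8.61 on all 3 arrays. None of the 19 measured aminoacyl-tRNA synthetase genes and their scaffold genes passed, 14 read lower in CXCR3- innate than in naive cells, and the median was -0.09. Over all genes 36.3% read lower there, and 66% of those at or above the 75th percentile of mean value, where few of the 19 lay. The share was 52.3% of all genes at or above the median of mean value and 20.3% of those below it. Sars, at -0.52, and Nars, at -0.49, which charge tRNAs with serine and asparagine, had the largest differences there, whereas CXCR3+ innate relative to naive cells gave -0.05 and 0.00. Iars and Qars came next by their largest difference in any comparison. Iars was -0.35 in CXCR3+ innate and -0.30 in CXCR3- innate relative to naive cells, so it was lowest in CXCR3+ innate cells. Qars was 0.12 and -0.18 in the same order.

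Signalling genes of translation control were described by their medians and counts. Over the 18 measured genes of mTOR and translation control the medians were 0.00 for CXCR3+ innate relative to naive cells, -0.06 for CXCR3- innate relative to naive cells, with 11 below 0 and 7 equal, and 0.02 for CXCR3+ relative to CXCR3- innate cells, and none passed 1.5-fold. Mtor and Rptor themselves were equal on the 3 arrays. Ppp1r15b, a subunit of the phosphatase that reverses eIF2 phosphorylation, differed by -0.32 and Ppp1r15a, its stress-induced relative, by -0.28 for CXCR3- innate relative to naive cells. Atf4, the transcription factor whose mRNA is translated when eIF2 is phosphorylated, read 8.75 in CXCR3+ and 8.48 in CXCR3- innate cells, against 8.66 in naive cells. Rps6ka3, a ribosomal S6 kinase gene, was 0.26 lower on both innate arrays than in naive cells.

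The remaining lists were short. Of 4 termination and recycling genes none passed 1.5-fold, and Etf1, which encodes the release factor eRF1, had the largest difference at -0.27 for CXCR3- innate relative to naive cells. The 3 mitochondrial translation factors had medians of 0.00, -0.09 and 0.09 for CXCR3+ innate relative to naive cells, CXCR3- innate relative to naive cells and CXCR3+ relative to CXCR3- innate cells. Among them Tufm, the mitochondrial elongation factor that delivers tRNA, read 7.85 in CXCR3+ and 7.74 in CXCR3- innate cells, against 7.72 in naive cells. The 4 non-canonical initiation factors read the same on both innate arrays, and the RNA helicase gene Ddx3x among them was 0.24 lower on each than in naive cells.

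Set beside other gene families of protein production, translation factor genes were not alone in these values. For CXCR3- innate relative to naive cells the median was -0.22 for the 47 translation factor genes, -0.39 for 50 cytosolic ribosomal protein genes, -0.03 for 31 mitochondrial ribosomal protein genes and -0.11 for 39 proteasome subunit genes. For CXCR3+ relative to CXCR3- innate cells the medians were 0.17, 0.36, 0.02 and 0.08 in the same order. In the first of these comparisons 4 of the 47 translation factor genes were past 1.5-fold and lower, as were 14, 1 and 4 genes of the other families, where 1.60% of all genes and 5.26% of those at or above the 75th percentile of mean value were. With 1 array per population no test of a difference between the families could be made.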

How the data were processed

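The deposited values are log2 expression values. Per the submitters' processing notes, the authors used RMA and Affymetrix Expression Console, whose versions the sources used here do not give. RMA subtracts a modelled background, brings arrays to a common distribution and combines probes by median polish. Of 12417 probe sets in each of 3 arrays, 10576 had 1 gene symbol in the platform annotation, 1108 several and 733 none. Only the first kind was used. The mean log2 value over a gene's probe sets stood for the gene, for 10191 genes. The number of arrays limits the precision, and no count or depth exists.

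Differences were described by size, with 1.5-fold and a filter on dim genes (the higher value at or above its array's median) as the rule. All 47 genes were described by role, in full where they passed the rule, lay among the 5 most extreme of a comparison, led their role or had a measured copy, and up to 4 genes of each other list were named. Members, lists, rule and alternatives were chosen with earlier results of these data known. Promoter windows came from RefSeq (GRCm38.p6). Tools were Python 3.11.15, numpy 2.4.6, pandas 2.3.3, matplotlib 3.10.9, R 4.3.3 and limma 3.58.1.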

Additional observations from a re-analysis of the deposited data

How the results depend on the processing

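No paired analysis was possible because each population had 1 array. The median for CXCR3- innate relative to naive cells kept its sign in the 11 alternatives that bear on it, from -0.28 to -0.12, and that for CXCR3+ relative to CXCR3- innate cells did too, from 0.13 to 0.22. Quantile normalization gave medians of -0.0036 for CXCR3+ innate relative to naive cells and -0.16 for CXCR3- innate relative to naive cells. Centring on the mean of the brighter genes gave 0.0124, the opposite sign, and -0.12. This last setting shifts all genes of an array by the same amount, and it moved the median of all genes to 0.06 and 0.10. Centring on the median is such a shift too, and it moved that median to 0.01 and 0.02. The distance of the translation factor median from that of all genes could not change under either, so neither is a check of it. Leaving out genes equal on all 3 arrays was another of the alternatives. It could not bring a median nearer to 0, so it is no check of the sign. The number of genes above 0 for CXCR3+ innate relative to naive cells was 22 after quantile normalization, 17 after cyclic loess, 17 after centring on the median, 27 after centring on the brighter genes and 3 among the bright members of either filter. For CXCR3- innate relative to naive cells it was 10, 7, 12 and 14 in the first 4 of these settings, and for CXCR3+ relative to CXCR3- innate cells it was 21 of 26 genes at or above the 75th percentile. Those 4 settings can turn exactly equal values into small differences. Before them, 9 of the 47 genes and 45% of all genes were equal for CXCR3+ innate relative to naive cells. For CXCR3- innate relative to naive cells 8 of the 47 and 42.1% of all genes were. Shares of all genes above 0 were not taken after those settings, so the counts do not set translation factor genes apart. The genes lower in CXCR3- innate than in naive cells numbered 2 after quantile normalization, which left out Eef1b2 at -0.53 and Eif3e at -0.56, 2 at or above the 75th percentile, 0 at 2-fold and 16 at 0.32 log2 units. Eif3e also missed the threshold after centring on the brighter genes, at -0.52. Over all 10191 genes the number lower fell as well, from 163 to 89 after quantile normalization and 96 after centring on the brighter genes. The genes higher in CXCR3+ than in CXCR3- innate cells numbered 0 at 2-fold, 8 at 0.32 log2 units and 0 under each of quantile normalization, centring on the brighter genes and cyclic loess, where Eef1b2 gave 0.50, 0.57 and 0.58. Over all genes the number higher in CXCR3+ than in CXCR3- innate cells fell from 102 to 79, 81 and 92 under those normalizations, in the same order. At 0.32 log2 units 3 genes were lower in CXCR3+ innate than in naive cells. The shares of all genes at 2-fold and at 0.32 log2 units are given above. With no replicates, no alternative could leave an array out.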

Other observations

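There are 8 probe sets that carry a translation factor symbol together with another one and that were kept out of the values above. A pair of them lies in Eif4a2, which is known as a host gene of small nucleolar RNAs that are cut from its introns. The probe set annotated with Snord2 and Eif4a2 read 7.80 in CXCR3+ and 7.16 in CXCR3- innate cells, against 8.22 in naive cells. The one annotated with Snora81 and Eif4a2 read 7.43 in CXCR3+ and 7.09 in CXCR3- innate cells, against 8.01 in naive cells. Both thus had the order of the Eif4a2 probe sets, with differences of -1.06 and -0.92 for CXCR3- innate relative to naive cells, where those of Eif4a2 were -0.74 and -0.77. Whether host transcript or small RNA gave these signals was not tested.

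The probe sets shared by Eef1a1 and predicted genes gave -0.37 and -0.13 for CXCR3- innate relative to naive cells, and -0.14 and -0.13 for CXCR3+ innate relative to naive cells. The probe set shared by Eif4a3 and its near copies gave -0.13 for CXCR3- innate relative to naive cells, a sign opposite to those of Eif4a3, at 0.03, and Eif4a3l1, at 0.16. That of Eif3j2 and Eif3j1 gave -0.07 for CXCR3- innate and -0.08 for CXCR3+ innate relative to naive cells, a sign opposite to the 0.07 of Eif3j1 in both. That of Aimp2 and Eif2ak1 gave -0.01 and 0.00 for the same comparisons. That of Eif4ebp3 and Ankhd1 read 7.999 on every array.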
